A study of Homo sapiens with 8 samples.

Results

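Transcript levels of 7 genes of the ATR kinase pathway and the response to DNA breaks were followed in MCF10A cells treated with an ATR inhibitor, ionizing radiation or both. The genes are ATR, ATRIP, RAD9A, CHEK1, RBBP8, PRKDC and RFWD3. They were picked by symbol, each has 1 entry among the 14944 loci of the expression table, and all 7 were among the 12809 loci tested. MCF10A cells are an established line from human breast epithelium that grows without limit but does not form tumours. The 8 libraries of ribosome-depleted total RNA form 4 groups of 2. The DMSO group received solvent, the AZD6738 group 250 nM of the ATR inhibitor AZD6738, the IR group solvent and 20 Gy of radiation, and the AZD6738+IR group inhibitor and radiation. Solvent or inhibitor was given 2 hours ahead of the radiation and left on for 3 days. All groups come from 1 cell line, and a kinase inhibitor leaves the gene itself in place, so no deletion or knockdown was there to check. The labels do not say that the libraries of a group were separate cultures, so the spread that p-values are measured against may be only technical.

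ATR is the kinase that answers to single-stranded DNA coated with RPA, at stalled replication forks and at resected breaks. ATRIP brings it there, the 9-1-1 clamp with its subunit RAD9A helps to switch it on through TOPBP1, and the kinase CHEK1 carries the signal on to the cell cycle. A break is either resected, which CtIP (encoded by RBBP8) starts, or rejoined end to end, which DNA-PKcs (encoded by PRKDC) directs, and the ubiquitin ligase RFWD3 modifies RPA at damaged DNA.

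The 7 transcripts did not respond as a block. Radiation alone left RBBP8 near its solvent level, lowered CHEK1, ATRIP, RAD9A and PRKDC, and raised ATR and RFWD3. With inhibitor and radiation together, RBBP8 was 2.12-fold and PRKDC 2.27-fold below the solvent level, RAD9A was 2.10-fold above it, and ATR was back near it. RFWD3 was high in every group that received an agent, and CHEK1 was lowest under both agents. Levels are FPKM, fragments scaled to transcript length and to the library's total, with group means ± SD and n = 2. Folds are ratios of group means. Log2 differences are of FPKM + 1, which understates the change of low genes such as RAD9A. A gene counts as called at a limma adjusted p under 0.05, adjusted over all loci tested in the comparison.

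**Figure D1:**
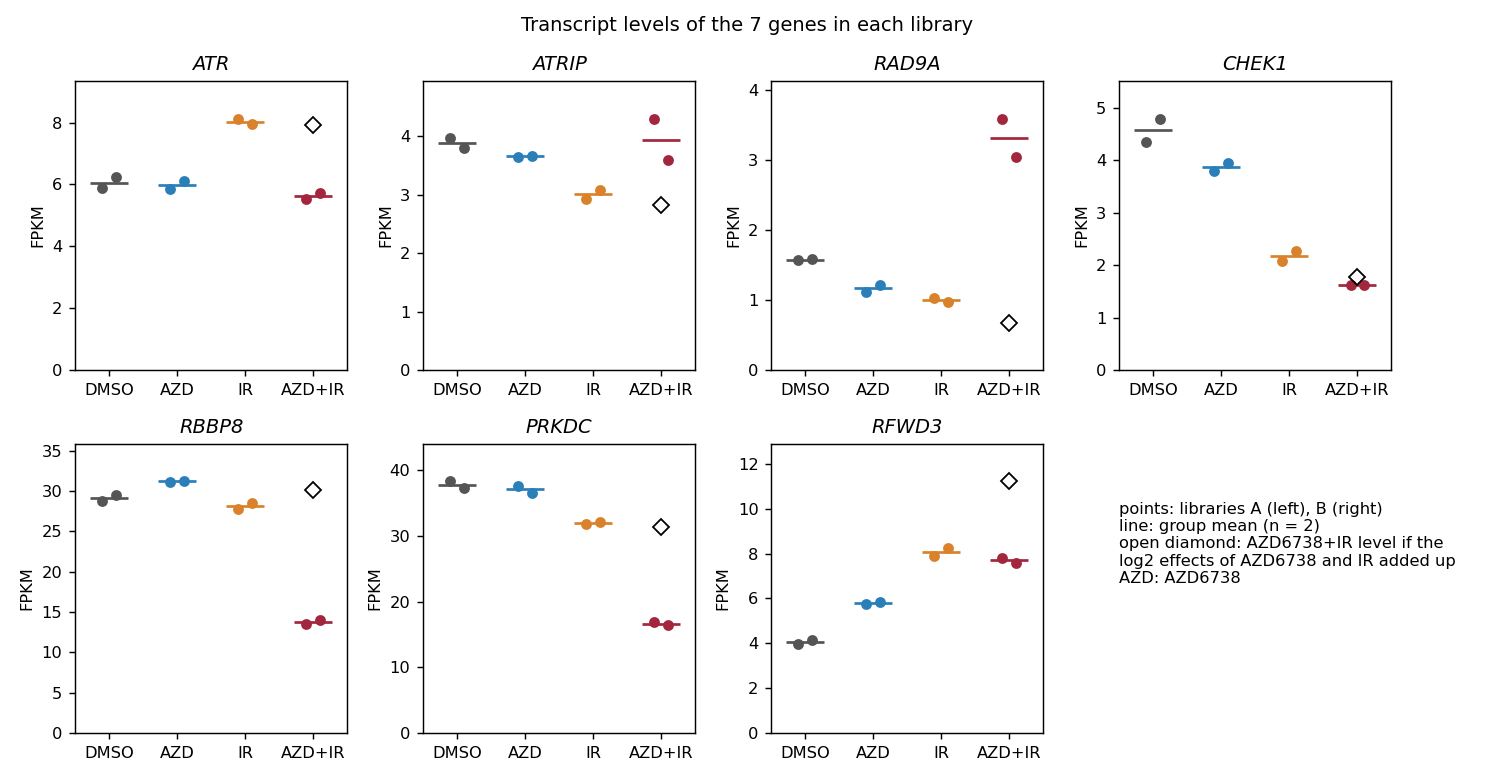
FPKM (vertical axes, from 0) of the 7 genes in the 8 libraries; points are libraries, lines are group means, and the open diamond is the AZD6738+IR level that would hold if the log2 effects of the separate treatments added up. The AZD6738+IR points lie far below the diamond for RBBP8 and PRKDC (13.7 against 30.1 and 16.7 against 31.5), above it for RAD9A (3.32 against 0.682) and close to it for CHEK1 (1.63 against 1.77).

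RefSeq promoter windows (build GRCh38.p14, 250 bases before to 50 after a transcript start) were found for 6 of the 7 genes. The 4 shown belong to genes whose levels under both agents went to different places: RFWD3 high, RAD9A up, RBBP8 down and ATR near solvent. The RefSeq transcript start that each window is built on lies within 93 bases of the annotated start of the listed transcript. The windows run 5′ to 3′ along the gene's strand, with motif matches in capitals. Those of ATR (chr3:142578684-142578983) and RFWD3 (chr16:74666828-74667127) are on the minus strand, those of RAD9A (chr11:67391736-67392035) and RBBP8 (chr18:22933078-22933377) on the plus strand.
ATR: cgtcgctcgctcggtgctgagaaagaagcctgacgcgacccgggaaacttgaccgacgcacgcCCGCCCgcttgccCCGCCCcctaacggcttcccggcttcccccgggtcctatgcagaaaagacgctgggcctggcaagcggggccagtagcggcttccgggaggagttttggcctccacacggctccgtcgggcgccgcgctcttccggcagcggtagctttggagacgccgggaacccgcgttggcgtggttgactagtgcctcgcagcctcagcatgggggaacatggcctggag
RAD9A: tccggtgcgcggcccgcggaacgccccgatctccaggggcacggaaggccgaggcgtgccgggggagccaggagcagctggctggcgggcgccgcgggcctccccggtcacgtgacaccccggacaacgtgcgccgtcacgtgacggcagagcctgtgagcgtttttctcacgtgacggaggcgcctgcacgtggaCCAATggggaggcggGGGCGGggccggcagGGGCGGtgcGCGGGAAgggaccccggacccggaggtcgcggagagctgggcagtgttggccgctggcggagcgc
RBBP8: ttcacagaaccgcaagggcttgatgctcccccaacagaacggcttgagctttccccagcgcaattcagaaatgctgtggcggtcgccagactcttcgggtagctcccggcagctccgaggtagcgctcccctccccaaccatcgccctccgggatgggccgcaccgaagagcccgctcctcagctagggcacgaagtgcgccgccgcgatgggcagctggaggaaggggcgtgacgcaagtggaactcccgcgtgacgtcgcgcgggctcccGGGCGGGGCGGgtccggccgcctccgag
RFWD3: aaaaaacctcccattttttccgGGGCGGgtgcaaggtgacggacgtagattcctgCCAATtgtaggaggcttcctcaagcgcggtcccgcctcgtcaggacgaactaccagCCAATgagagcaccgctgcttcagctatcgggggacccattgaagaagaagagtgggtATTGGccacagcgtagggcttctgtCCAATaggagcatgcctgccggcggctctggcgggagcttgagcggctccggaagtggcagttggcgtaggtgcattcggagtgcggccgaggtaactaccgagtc

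The motifs searched on both strands were the GC box GGGCGG, the CCAAT box CCAAT, the CHR element TTTGAA, and an E2F core in 4 spellings, the first TTGGCGC, the second TTCCCGC, the third TTGCCGC and the last TTCGCGC. The RFWD3 window holds 4 CCAAT boxes and 1 GC box. The RAD9A window holds 2 GC boxes, 1 CCAAT box and 1 E2F core, which reads GCGGGAA on the strand shown. ATR has 2 GC boxes, read as CCGCCC here, and the RBBP8 window shown has 2 that share a base. Another RBBP8 window, not shown, is built on a start at 22933867 and holds 1 GC box. Of the 35116 windows of the table, 45.0% hold a GC box, 34.6% a CCAAT box, 15.2% a CHR element and 13.0% an E2F core. In the windows shown, G and C make up 75.7% for RAD9A, 68.7% for RBBP8, 68.3% for ATR and 59.3% for RFWD3. The median over all windows is 58.7%. These matches describe the letters only.

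The ATR gene (chromosome 3, 142449235 to 142578826, minus strand, GRCh38) encodes the target of AZD6738. Its level was 5.89 and 6.23 FPKM in the DMSO libraries, 5.86 and 6.10 in AZD6738, 8.12 and 7.94 in IR, and 5.52 and 5.72 in AZD6738+IR. The IR libraries stood above all 6 others, and DMSO and AZD6738 overlapped. ATR rose 1.33-fold with radiation, by 0.36 on the log2 scale (SE 0.043, limma adjusted p = 0.00080). With the inhibitor present the irradiated cells were lower than with radiation alone, by a log2 difference of -0.45 (SE 0.043, limma adjusted p = 0.00052). Against DMSO the AZD6738+IR level of 5.62 ± 0.14 FPKM was not called, with a log2 difference of -0.09 (95% interval -0.20 to 0.01, limma adjusted p = 0.098). The effect of radiation therefore differed with and without inhibitor, by an interaction of -0.43 (SE 0.061, limma adjusted p = 0.0038), where the interaction is the log2 effect of radiation in inhibitor-treated cells minus that in solvent-treated cells. The inhibitor alone gave a log2 difference of -0.02 (95% interval -0.12 to 0.09).

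ATRIP (chromosome 3, 48446710 to 48467645, plus strand), the obligate partner through which ATR is brought to RPA-coated DNA, moved the opposite way. The libraries held 3.98 and 3.81 FPKM in DMSO, 3.65 and 3.67 in AZD6738, 2.93 and 3.09 in IR, and 4.30 and 3.59 in AZD6738+IR. Both IR libraries were below all others, and the AZD6738+IR pair was the widest of the gene, 18.0% apart and spanning the DMSO level. ATRIP fell by 0.29 on the log2 scale with radiation (SE 0.073, limma adjusted p = 0.016). It was 0.30 higher in AZD6738+IR than in IR (SE 0.073, limma adjusted p = 0.017), with an interaction of 0.37 (SE 0.10, limma adjusted p = 0.039). These 3 calls are fragile: the first was lost without DMSO A (adjusted p = 0.075) or IR A (0.080), the second without IR A (0.084) or IR B (0.053), and the interaction without any 1 of the 6 libraries outside the AZD6738+IR group, where adjusted p reached 0.113. The second call and the interaction were also lost when libraries were rescaled to equal totals (limma adjusted p = 0.079 and 0.145). With only the groups compared in the fit, the second call was lost as well (limma adjusted p = 0.066). The ATRIP difference between AZD6738+IR and DMSO was 0.01 (95% interval -0.17 to 0.19). TREX1, a DNA exonuclease gene of 1835 bases, lies inside the annotated ATRIP span on the same strand. It starts at 48465811, beyond the end of the listed ATRIP transcript at 48465655. TREX1 has no matching symbol, and whether reads from it entered the ATRIP values was not tested. SHISA5, whose product is a membrane protein known as a p53 target, lies 152 bases further on, on the opposite strand. Its means were 28.4, 11.0, 11.4 and 20.1 FPKM in DMSO, AZD6738, IR and AZD6738+IR, and its part in the ATRIP values was not tested.

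RAD9A (chromosome 11, 67317871 to 67398410, plus strand, the listed transcript from 67391952 on) encodes the subunit of the 9-1-1 clamp whose tail binds TOPBP1. It was the lowest of the 7 in DMSO and had the widest range of group means, 3.32-fold. Its level was 1.57 and 1.58 FPKM in DMSO, 1.12 and 1.22 in AZD6738, 1.03 and 0.970 in IR, and 3.60 and 3.04 in AZD6738+IR. Each agent alone went with lower values, and both together with the highest, without overlap between any of the 4 groups. RAD9A fell with radiation by 0.37 on the log2 scale (SE 0.071, limma adjusted p = 0.0054), whereas the difference of -0.25 with inhibitor alone was not called (95% interval -0.42 to -0.07 before adjustment, limma adjusted p = 0.24). In AZD6738+IR it was 3.32-fold above IR (log2 1.11, SE 0.071, limma adjusted p = 0.00013) and 2.84-fold above AZD6738 (log2 0.99, limma adjusted p = 5.4e-05). The interaction was 1.36 (SE 0.10, limma adjusted p = 0.00053), larger than that of 98.0% of all loci tested. With 0.1 in place of 1 added to FPKM it came to 2.04. The annotated RAD9A span, though not its listed transcript, also covers POLD4 on the opposite strand, a small subunit of DNA polymerase delta. POLD4 rose in both irradiated groups, with means of 4.01, 4.90, 8.78 and 18.6 FPKM in DMSO, AZD6738, IR and AZD6738+IR, so under radiation alone it rose while RAD9A fell. From IR to AZD6738+IR it rose with RAD9A, 2.12-fold (limma adjusted p = 0.022), and its part in the RAD9A values was not tested. PPP1CA overlaps the end of RAD9A by 228 bases on the opposite strand and has no matching symbol.

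CHEK1 (chromosome 11, 125625136 to 125676255, plus strand) encodes the checkpoint kinase that ATR phosphorylates. Its libraries held 4.35 and 4.79 FPKM in DMSO, 3.80 and 3.94 in AZD6738, 2.07 and 2.27 in IR, and 1.63 in both libraries of AZD6738+IR. The 4 groups formed steps downwards with no overlap. CHEK1 was 2.81-fold lower in AZD6738+IR than in DMSO (log2 -1.08, SE 0.057, limma adjusted p = 1.6e-05), and radiation alone gave 2.10-fold lower levels (log2 -0.81, limma adjusted p = 0.00010). The further step from IR to AZD6738+IR was -0.27 (limma adjusted p = 0.0098), a call lost without IR B (adjusted p = 0.057). The step with inhibitor alone, -0.19, was not called (limma adjusted p = 0.25). CHEK1 was the only member whose interaction was not called, at -0.08 with a 95% interval of -0.28 to 0.12. STT3A, a subunit of the oligosaccharyltransferase, overlaps the start of CHEK1 by 80 bases on the same strand and fell too, from 59.8 ± 0.14 FPKM in DMSO to 37.1 ± 0.037 in IR and 27.1 ± 0.82 in AZD6738+IR. Its part in the CHEK1 values was not tested.

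RBBP8 (chromosome 18, 22798261 to 23026488, plus strand) encodes CtIP, which with the MRE11 complex starts the resection of broken ends. It was at 28.7 and 29.5 FPKM in DMSO, 31.2 in both AZD6738 libraries, 27.7 and 28.5 in IR, and 13.46 and 13.98 in AZD6738+IR. The first 3 groups lay within a few FPKM of each other and the combined group far below them. Radiation alone gave a log2 difference of -0.05 (95% interval -0.14 to 0.04, limma adjusted p = 0.30) and inhibitor alone one of 0.10 (95% interval 0.01 to 0.19 before adjustment, limma adjusted p = 0.34). RBBP8 was 2.12-fold lower in AZD6738+IR than in DMSO (log2 -1.03, SE 0.036, limma adjusted p = 4.1e-06) and 2.05-fold lower than in IR (log2 -0.99, limma adjusted p = 2.1e-05). Its interaction of -1.08 (SE 0.051, limma adjusted p = 0.00011) was lower than that of all but 1.35% of loci.

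PRKDC (chromosome 8, 47773108 to 47960183, minus strand) encodes DNA-PKcs, the catalytic subunit of the kinase that acts with the Ku proteins in end joining, and was the most abundant of the 7 per length. Its level was 38.3 and 37.3 FPKM in DMSO, 37.7 and 36.5 in AZD6738, 31.9 and 32.2 in IR, and 16.9 and 16.5 in AZD6738+IR. DMSO and AZD6738 overlapped, IR was a step lower, and AZD6738+IR lower still. PRKDC fell with radiation by 0.23 on the log2 scale (SE 0.035, limma adjusted p = 0.0020). Under both agents it was 2.27-fold below DMSO (log2 -1.13, SE 0.035, limma adjusted p = 2.8e-06) and 1.92-fold below IR (log2 -0.90, limma adjusted p = 2.5e-05). The interaction was -0.88 (SE 0.049, limma adjusted p = 0.00021), with 2.53% of loci lower. MCM4, a subunit of the replicative helicase, begins 1 base away on the opposite strand. It also fell from IR to AZD6738+IR, from 10.7 ± 0.019 to 7.04 ± 0.60 FPKM, with an interaction of -0.32 (limma adjusted p = 0.038). Fewer cells of a kind and less RNA per cell cannot be told apart in bulk samples like these, and this holds for every decrease described here.

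RFWD3 (chromosome 16, 74621394 to 74666881, minus strand) encodes the E3 ubiquitin ligase that acts on RPA at stalled forks and is also a Fanconi anaemia gene. It was at 3.96 and 4.16 FPKM in DMSO, 5.77 and 5.86 in AZD6738, 7.88 and 8.26 in IR, and 7.82 and 7.60 in AZD6738+IR. All 6 libraries that received an agent were above both DMSO libraries, and the irradiated pairs were above the AZD6738 pair. RFWD3 rose 1.99-fold with radiation (log2 0.84, SE 0.042, limma adjusted p = 3.9e-05) and 1.90-fold with both agents (log2 0.78, limma adjusted p = 1.7e-05). With inhibitor alone it was 1.43-fold higher (log2 0.43, limma adjusted p = 0.0486), a call lost when any library is left out, where adjusted p ran from 0.056 to 0.142. From IR to AZD6738+IR the difference was -0.06 (95% interval -0.16 to 0.04). The interaction was -0.49 (SE 0.059, limma adjusted p = 0.0024): the combined level was 7.71 FPKM where adding the separate log2 effects gives 11.2.

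The order of the levels per length changed with treatment. In DMSO, PRKDC and RBBP8 were followed at a distance by ATR, CHEK1, RFWD3, ATRIP and RAD9A, where RFWD3 and ATRIP overlapped. Among loci tested, 88.9% were below PRKDC in DMSO, 85.9% below RBBP8, 50.7% below ATR, 42.6% below CHEK1, 39.1% below RFWD3, 37.9% below ATRIP and 14.3% below RAD9A. RFWD3 moved up to the level of ATR in AZD6738 and in IR, where the pairs of both genes overlapped, and above ATR in AZD6738+IR. CHEK1 went from between ATR and RFWD3 in DMSO to below RAD9A under both agents, where RAD9A overlapped with ATRIP. PRKDC and RBBP8 kept the first places in all 4 groups.

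In IR against DMSO, 6 of the 7 genes were called, 2 higher and 4 lower, beside 61.8% of all loci called, 23.7% higher and 38.0% lower. In AZD6738 against DMSO the 1 called gene was RFWD3, beside 0.148% of all loci, 0.0937% higher and 0.0546% lower. AZD6738+IR against DMSO called 5, with RAD9A and RFWD3 higher and CHEK1, RBBP8 and PRKDC lower, beside 72.7% of loci, 27.1% higher and 45.6% lower. AZD6738+IR against AZD6738 called those 5 in those directions, beside 72.4% of loci, 27.1% higher and 45.2% lower. From IR to AZD6738+IR 6 were called, ATRIP and RAD9A higher and ATR, CHEK1, RBBP8 and PRKDC lower, beside 51.1% of loci, 19.6% higher and 31.5% lower. The interaction called 6, with ATRIP and RAD9A positive and ATR, RBBP8, PRKDC and RFWD3 negative, beside 35.5% of loci, 13.1% positive and 22.4% negative. These comparisons share groups of libraries and are not independent of each other. With so many loci called in the irradiated groups, the counts of members do not set these genes apart, and the size and direction of each gene's difference carry the description.

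**Figure D2:**
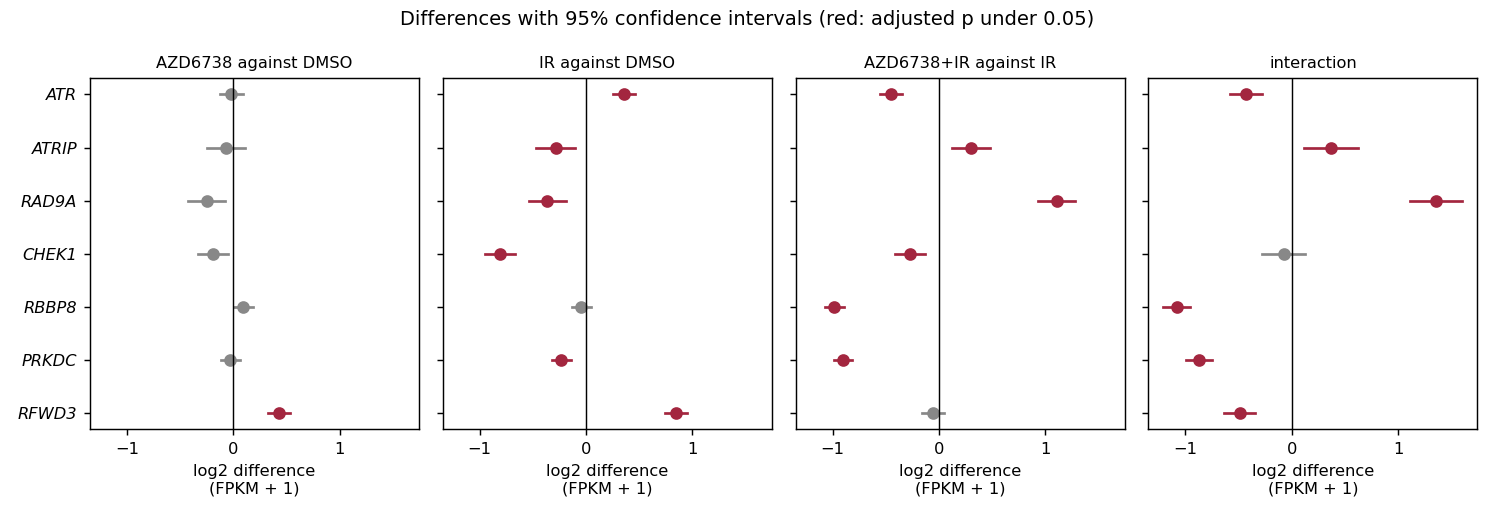
Log2 differences of FPKM + 1 (horizontal axes) with 95% confidence intervals before adjustment for the 7 genes in 4 comparisons; red marks an adjusted p under 0.05. From IR to AZD6738+IR, RBBP8 (-0.99) and PRKDC (-0.90) lie on one side and RAD9A (1.11) on the other, while RFWD3 (-0.06) stays at 0.

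Other genes of the pathway were counted from 7 lists by role, with 86 distinct genes of which 56 could be tested. With radiation 39 of the 56 fell and 1 rose, with a median log2 difference of -0.29, beside 38.0% of all loci lower, 23.7% higher and a median of -0.10. The counts of each list below stand beside these same shares. Of 7 tested genes of ATR activation, 5 fell, among them the fork protection partners TIPIN (-0.91) and TIMELESS (-0.58), the clamp loader RAD17 (-0.44) and the RPA subunit RPA3 (-0.34). The clamp partners HUS1 and RAD1, the second ATR activator ETAA1 and the CHEK1 adaptor CLSPN have no matching symbol and were not analysed here. Of 9 checkpoint effectors 7 fell, led by the mitotic kinase PLK1 (-1.15), the phosphatases CDC25C (-1.09) and CDC25B (-0.81), and cyclin B1, CCNB1 (-1.05).

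Among 9 genes of resection and homologous recombination 7 fell with radiation and 1 rose. NBN, a subunit of the MRE11 complex that CtIP works with, fell by 0.59 on the log2 scale, its partner RAD50 by 0.48, the nuclease DNA2 by 0.54 and RAD51C by 0.39, while PALB2, which brings BRCA2 to breaks, rose by 0.18. Of 6 end joining genes 4 fell, and these were TDP2 (-0.34), the Ku subunits XRCC6 (-0.33) and XRCC5 (-0.27), and the nuclease DCLRE1C (-0.19). In the list of ATM and break chromatin 7 of 8 fell, with the largest differences in MAD2L2 (-1.08), USP28 (-0.89), the acetyltransferase KAT5 (-0.75) and RIF1 (-0.43). Of 11 genes of stalled forks and RPA ubiquitination 8 fell, among them HLTF (-1.02), MUS81 (-0.57), ZRANB3 (-0.47) and PRPF19 (-0.44), which like RFWD3 encodes a ubiquitin ligase that acts on RPA. RFWD3 itself rose in the same comparison. Of 6 kinases related to ATR and their chaperones, TRRAP fell (-0.48) and 5 were not called.

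From IR to AZD6738+IR 8 of the 56 pathway genes rose and 25 fell, with a median of -0.13, beside 19.6% of all loci higher, 31.5% lower and a median of -0.07. A list count such as 3 of 7 lower is near that share. The partners of PRKDC fell with it: XRCC5 had means of 130, 132, 108 and 83.1 FPKM in DMSO, AZD6738, IR and AZD6738+IR, and XRCC6 157, 157, 124 and 102. Their log2 differences of -0.37 and -0.29 in this step were smaller than the -0.90 of PRKDC, and the difference between the genes was not tested. Beside RBBP8, the resection and recombination genes BRCA1 (-0.39), RAD50 (-0.37) and DNA2 (-0.35) fell, while NBN rose by 0.67 to 16.9 ± 0.93 FPKM, close to its DMSO mean of 16.0 ± 0.34. Thus of the genes for CtIP and the MRE11 complex partners RAD50 and NBN, the first 2 were lower and the third higher.

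Beside RAD9A, 3 of 7 genes of ATR activation fell in this step, RPA1 (-0.38), TOPBP1 (-0.18) and TIMELESS (-0.15), and none rose. Beside CHEK1, 6 of 9 checkpoint effectors fell, led by CDK1 (-0.97), CCNB1 (-0.74), PKMYT1 (-0.62) and PLK1 (-0.49), and WEE1, the kinase that restrains CDK1, rose (0.36). Among relatives of ATR and PRKDC, MTOR fell (-0.47) and SMG1, the kinase of nonsense-mediated decay, rose (0.52). Of the chaperones of these kinases TELO2 fell (-0.42) and TTI2 rose (0.27). USP28 (0.92) and KAT5 (0.41) rose and BRCC3 fell (-0.24) in the list of ATM and break chromatin. SMARCAL1 (0.24) and SLX4 (0.18) rose and HLTF (-0.44), ZRANB3 (-0.43), PRPF19 (-0.40) and WRN (-0.21) fell in that of stalled forks, and APTX (-0.22) was the third end joining gene lower beside the Ku subunits. Over all 7 lists the interaction was called positive in 6 of 56 genes and negative in 16, beside 13.1% and 22.4% of all loci. The 6 were USP28 (0.99), NBN (0.60), KAT5 (0.47), SMG1 (0.47), WEE1 (0.43) and SMARCAL1 (0.40).

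For the other comparisons, 42 of the 56 fell and 3 rose in AZD6738+IR against DMSO (median -0.45), beside 45.6% of all loci lower, 27.1% higher and a median of -0.16. Against AZD6738, 37 fell and 2 rose (median -0.42), beside 45.2%, 27.1% and -0.15. In AZD6738 against DMSO none was called (median -0.06). Among the pathway genes PALB2 was the 1 called higher with radiation, as ATR and RFWD3 were, and 8 were called higher from IR to AZD6738+IR, as RAD9A and ATRIP were.

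Genes of proliferation and p53 targets moved alongside. In the proliferation list 11 of 13 tested genes fell with radiation (median -0.87) and 12 of 13 fell from IR to AZD6738+IR (median -0.63), beside 38.0% and 31.5% of all loci lower and medians of -0.10 and -0.07. Its summed level over 14 genes was 147 to 151 FPKM in DMSO, 132 to 133 in AZD6738, 84.0 to 85.7 in IR and 47.1 to 47.4 in AZD6738+IR, with no gene at 0 in every library. CHEK1 went down through the groups in the order of this sum, and the part of cell proliferation in the members' values was not tested. Of 13 p53 targets 9 rose with radiation, beside 23.7% of all loci, and from IR to AZD6738+IR 7 rose and 2 fell, beside 19.6% and 31.5%.

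**Figure D3:**
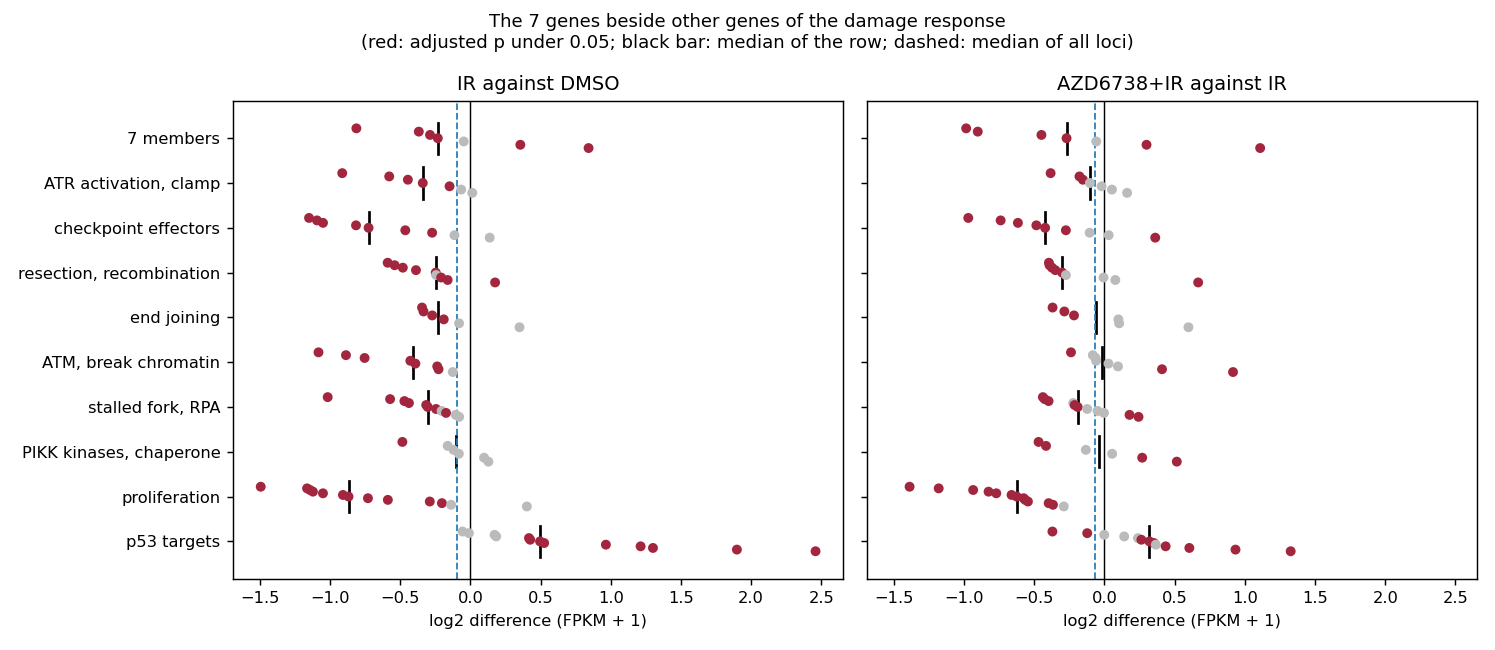
Log2 differences of FPKM + 1 (horizontal axes) for the 7 genes and for each list of pathway genes, in IR against DMSO (left) and AZD6738+IR against IR (right); each point is a gene, red marks an adjusted p under 0.05, black bars are medians and the dashed line is the median of all loci. The pathway lists lie mostly left of 0 with radiation, where 39 of 56 genes fell, while the 7 genes spread to both sides in both panels.

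The named genes whose log2 values followed each member most closely over the 8 libraries were listed as a description. The points share libraries and groups, and no test was made. ATR was matched by AP3M1 and FAHD1 (Pearson r = 0.991 for both) and HSPA4L (0.987). AP3M1, a subunit of an adaptor complex for vesicles, had the same single peak, with means of 7.77, 7.89, 15.3 and 6.97 FPKM in DMSO, AZD6738, IR and AZD6738+IR. ATRIP was matched by MALSU1 (0.994), JAZF1 (0.984) and APH1A (0.979), and CHEK1 by CTSH, OSGEPL1 and CPD (0.998 each). RAD9A was matched by RGCC (0.994), PSMF1 (0.992) and FYB (0.992), of which FYB had means of 3.93, 3.23, 2.43 and 9.25 FPKM. RBBP8 went with GFM1 (0.999), EEF1B2 (0.997) and LMBR1 (0.996), and PRKDC with SRPRB, RPL8 (0.999 each) and EEF2 (0.998). GFM1, EEF1B2 and EEF2 encode elongation factors of translation and RPL8 a ribosomal protein, and EEF2 went from 1718 to 1677, 1273 and 515 FPKM. RFWD3 was matched by PPFIBP1 and AKIRIN1 (0.980 each) and SPAG1 (0.979).

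Summed FPKM ran from 864306 to 969381 per library, and the 4 most abundant loci took 53.3% to 54.1% of it without radiation, 56.5% and 56.7% in IR, and 57.1% and 61.4% in AZD6738+IR. The last value is library B, which stands apart. Leaving it out changed 1 call of the members apart from RFWD3 with inhibitor alone: ATRIP in AZD6738+IR against AZD6738 was then called (adjusted p = 0.026). Of 9 markers of mammary epithelium, not all of them basal, 7 were found. All 7 were called in AZD6738+IR against DMSO, 4 higher and 3 lower. In that comparison 72.7% of all loci were called, 27.1% higher and 45.6% lower. KRT14, KRT17, KRT8 and CDH1 had means of 427, 1151, 44.8 and 41.2 FPKM in DMSO and 639, 3236, 323 and 102 in AZD6738+IR. TP63, EGFR and EPCAM went from 11.9, 19.9 and 26.6 to 4.98, 17.0 and 18.6, and the part of these shifts in the members' values was not tested. None of 13 markers of blood, endothelium, fibroblasts and nerve tissue had a matching symbol, so they were not analysed here.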

How the data were processed

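Total RNA of MCF10A cells was depleted of ribosomal RNA and read as stranded 75 bp paired ends, per the labels' protocols. FastQC, HISAT2 2.0.4, StringTie 1.3.4d and hg38 are named in the submitters' processing notes. Not given in the sources used here are their settings, the use of strand and the filter on the table. Each library has 1 deposited value per locus. The header names no unit, and treating the deposited values as FPKM is an assumption, since TPM would differ only by a factor per library. Read depth is unknown, so no counting error can be given, and a shift in a few abundant RNAs moves every other value of that library. The authors also deposited p-values of a comparison they do not name, which were not used.

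The columns named Control were taken as DMSO, the only group left without an agent. The letters A and B of the columns are not in the labels, which number the replicates. There were 0 value columns of no sample. For 217 symbols with several entries the highest was kept. limma 3.58.1 (R 4.3.3) was fitted to log2(FPKM + 1) of all 8 libraries with 1 coefficient per group, a variance trend, and the 12809 loci averaging 1 FPKM or more, with 4 residual degrees of freedom. Tests were two-sided, with Benjamini-Hochberg adjustment within each of 6 comparisons. Of these, only IR against DMSO was tested on simulated data. The members and lists were chosen with earlier results of these data known. Genes named from a list are those called, up to 4 per list and direction by size, and the 3 named genes most correlated with each member. Of these, 1 gene that the rule names is not reported here. TREX1, SHISA5, POLD4, PPP1CA, STT3A and MCM4 are named as neighbours. Positions are from the GENCODE annotation of GRCh38. The 18 alternatives per comparison covered pseudocount, filter, scaling, variance prior, samples in the fit, replicate block and each library left out.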

Additional observations from a re-analysis of the deposited data

Results flagged for a closer look

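The effect of radiation on a transcript differed between cells with and without AZD6738 for 6 of the 7 genes, by the interaction term of the limma fit, which was also called for 35.5% of all loci. RAD9A stood out upwards: its radiation effect was 1.36 higher on the log2 scale with inhibitor than without. RBBP8 (-1.08) and PRKDC (-0.88) stood out downwards. RFWD3 (-0.49) and ATR (-0.43) were lower and ATRIP (0.37) higher by smaller amounts. On the scale of FPKM + 1 the effect on low genes is understated, and with 0.1 added in place of 1 the values were 2.04 for RAD9A, -1.13 for RBBP8, -0.91 for PRKDC, -0.57 for RFWD3, -0.49 for ATR and 0.46 for ATRIP. ATRIP lost its call in 8 alternatives.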

How the results depend on the processing

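Of 731 values of members under an alternative, 690 kept their direction and their side of the threshold, 29 lost a call, 2 gained one and 10 changed sign. RAD9A (101 values) and PRKDC (107) had no change in any alternative run. RFWD3 in AZD6738 against DMSO lost its call in 14 alternatives, so that no member was called there, 0, with a mean of at least 5 FPKM, quantile normalization, rescaling to equal totals, no variance trend, only the groups compared, the replicate block, or any library left out (0 in each case). All changes of sign were in differences that were not called in the main comparison: ATR with inhibitor alone (-0.0506 to 0.0183 with a library left out), RBBP8 with radiation alone (0.0191 centred on the median, 0.0590 under quantile normalization), ATRIP in AZD6738+IR against DMSO (-0.0548 rescaled, -0.0916 to 0.116 with a library left out) and against AZD6738 (-0.0226 to 0.185), and ATR in AZD6738+IR against AZD6738 (0.0083 centred, 0.0058 under quantile normalization). Centring moves all differences of a comparison by the same amount, set by the median levels of its libraries. Rescaling brought a call for ATR in AZD6738+IR against DMSO (limma adjusted p = 0.043).

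A mean of at least 5 FPKM leaves fewer genes: 4 members, 28 pathway genes and 7033 loci were tested. Of the 4 members, 3 were called in each comparison of irradiated cells other than the interaction. Loci called numbered 4686, 5470, 4124 and 5459 of 7033 for IR against DMSO and AZD6738+IR against DMSO, IR and AZD6738. Pathway genes called numbered 22, 22, 17 and 21 of 28 in the same order. Loci called in AZD6738 against DMSO numbered 19, and 6 with that filter, 8 rescaled and 16 to 41 with a library left out. Pathway genes called in the interaction numbered 14 to 21 with a library left out. With a replicate block by column letter, 6 members were called in IR against DMSO, beside 7895 of 12809 loci. In the interaction 5 members were called, beside 4445 of 12809 loci, and ATRIP had limma adjusted p = 0.051. The letters are not in the labels and differences between B and A correlated between groups by only -0.05 to 0.16, so they are not taken as pairs. The cause of these changes was not tested. With 2 libraries per group and unknown depth, small differences of low genes are the least certain.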
